A study of Mus musculus with 3 samples.

Results

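The nuclear genes that encode respiratory complexes III, IV and V, with 1 factor of their assembly into larger units, were examined in CUT&Tag libraries of Flag-tagged Bcl11a. Members were the protein-coding RefSeq genes on mm10 whose symbols begin with Uqcr (complex III), Cox4 to Cox8 (complex IV) or Atp5 (complex V), 43 of 21887 protein-coding genes in all. Of these, 8 belong to complex III, 18 to complex IV and 17 to complex V. The 3 libraries were made from LSK cells of mouse bone marrow, a sorted fraction with stem and early progenitor cells of the blood. In CUT&Tag an antibody guides a transposase to a chromatin protein, and the DNA cut nearby is sequenced. Bcl11a, a zinc finger repressor, was tagged by knock-in of a 3xFlag epitope at its N-terminus according to the design text, while the genotype label of every library reads wildtype. The labels give neither age nor sex, and nothing in them says that the libraries came from separate animals. Libraries 1, 2 and 3 form a single group, no untagged or antibody-free library was analysed here, and SDs measure the spread between these libraries, which may be technical. A peak was therefore not told apart from open chromatin that was cut without the tagged protein.

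Complex III passes electrons from ubiquinol to cytochrome c, complex IV passes them on to oxygen, and both pump protons across the inner mitochondrial membrane. Complex V, the ATP synthase, lets the protons flow back and makes ATP. Most of their subunits are encoded in the nucleus and expressed in nearly every cell, while several complex IV subunits also have isoforms kept to heart and skeletal muscle, lung or testis. Blood stem cells are known for low respiration, which rises when they differentiate.

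The deposited lists held 38739, 36466 and 43469 peaks in libraries 1, 2 and 3. Overlapping peaks were joined into 60816 regions, 22987 of them with a peak of every library, called reproducible. Occupied genes were those with a reproducible region no more than 1 kb from either outer end of the annotation. Solved from the lists, the lowest background stood at 1.07 fragments per base in library 1, 1.41 in library 2 and 1.95 in library 3, so coverage was thinnest in library 1. Of the genes that name the LSK gate, Kit was occupied, with a fold enrichment of 5.89 ± 0.26 (SD, n = 3), and Ly6a, which encodes Sca-1, had a peak at an end in 1 library. Expression was not measured, and a peak at a gene end does not identify a cell type, so the cell type was not checked.

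Promoters of 6 members are shown because they belong to strongly occupied genes of each complex and to contrasts among isoforms. Each runs from 250 bases before the annotated start site to 49 after it, 300 bases in all, 5′ to 3′ on the gene's own strand, and comes from RefSeq on GRCm38.p6, the assembly behind mm10. All 6 genes lie on the minus strand. Capitals mark matches, on either strand, to TGACCA (BCL11A), the NRF1 palindrome, CCGGAAG (the ETS factors, among them GABPA), ATGGCGG (YY1), GGGCGG (SP1) and CCAAT (NFY). Cox8a, chr19:7217567-7217866, and Uqcrh, chr4:116075021-116075320, stand for strong regions of complexes IV and III, and Atp5g2, chr15:102670998-102671297, for complex V. Cox7a2l, chr17:83514284-83514583, had the highest fold enrichment among the members. Cox8b, chr7:140900397-140900696, is the muscle partner of Cox8a and had no peak. Cox7a2, chr9:79759804-79760103, had a region at this start site although its outer ends were empty.
Cox8a: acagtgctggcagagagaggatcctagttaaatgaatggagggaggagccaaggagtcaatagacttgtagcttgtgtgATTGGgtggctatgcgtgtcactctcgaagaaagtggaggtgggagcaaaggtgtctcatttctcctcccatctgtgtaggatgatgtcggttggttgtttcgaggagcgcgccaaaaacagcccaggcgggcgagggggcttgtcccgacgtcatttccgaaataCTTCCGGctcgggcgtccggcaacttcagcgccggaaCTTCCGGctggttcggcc
Cox8b: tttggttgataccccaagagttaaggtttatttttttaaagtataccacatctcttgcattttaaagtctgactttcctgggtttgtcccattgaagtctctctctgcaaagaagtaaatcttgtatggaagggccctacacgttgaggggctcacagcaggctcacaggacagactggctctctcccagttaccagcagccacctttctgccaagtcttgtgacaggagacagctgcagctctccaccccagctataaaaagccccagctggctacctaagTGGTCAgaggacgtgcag
Uqcrh: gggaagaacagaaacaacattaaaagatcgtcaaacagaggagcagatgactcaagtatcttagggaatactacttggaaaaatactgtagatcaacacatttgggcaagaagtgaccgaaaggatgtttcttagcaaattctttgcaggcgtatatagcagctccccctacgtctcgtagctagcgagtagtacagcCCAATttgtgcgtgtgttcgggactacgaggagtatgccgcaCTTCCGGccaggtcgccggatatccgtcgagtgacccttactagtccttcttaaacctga
Atp5g2: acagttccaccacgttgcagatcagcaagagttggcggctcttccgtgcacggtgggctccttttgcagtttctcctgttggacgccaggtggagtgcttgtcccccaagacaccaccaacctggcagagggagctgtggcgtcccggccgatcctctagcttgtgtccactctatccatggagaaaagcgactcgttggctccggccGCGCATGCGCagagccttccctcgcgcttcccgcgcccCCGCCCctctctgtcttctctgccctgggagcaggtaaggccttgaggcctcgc
Cox7a2l: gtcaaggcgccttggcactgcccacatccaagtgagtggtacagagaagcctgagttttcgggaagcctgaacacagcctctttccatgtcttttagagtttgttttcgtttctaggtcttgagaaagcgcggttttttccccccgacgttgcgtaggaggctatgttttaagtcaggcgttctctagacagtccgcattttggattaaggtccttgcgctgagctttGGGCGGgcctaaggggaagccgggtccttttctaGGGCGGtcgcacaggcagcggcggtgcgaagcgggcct
Cox7a2: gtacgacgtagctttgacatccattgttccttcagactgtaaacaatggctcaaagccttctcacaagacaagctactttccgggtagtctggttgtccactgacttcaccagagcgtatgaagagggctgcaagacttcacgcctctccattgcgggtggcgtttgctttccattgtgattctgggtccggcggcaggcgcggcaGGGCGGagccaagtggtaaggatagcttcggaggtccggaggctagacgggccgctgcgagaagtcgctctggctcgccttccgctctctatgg

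Ends of 32 of the 43 members were occupied (74.4%), where 45.2% of all protein-coding genes were. Complex III was occupied in 8 of 8 genes, complex V in 15 of 17 (88.2%) and complex IV in 9 of 18 (50%). Among the 35 subunit genes classed as ubiquitous, 28 were occupied (80%). Among the 7 tissue-specific isoforms, all of complex IV, 3 were occupied (42.9%), a share close to that of all protein-coding genes. The ubiquitous subunits of complex IV alone were occupied in 5 of 10 cases at an outer end. At an outer end or a listed start site they had 7 of 10 (70%), a rule for which the share of all protein-coding genes was not computed. Cox7a2l, which encodes a factor that joins complexes III and IV into supercomplexes and is no core subunit, was occupied and belongs to neither class. No test was run on these shares, since the libraries form 1 group and genes are not replicates.

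**Figure D1:**
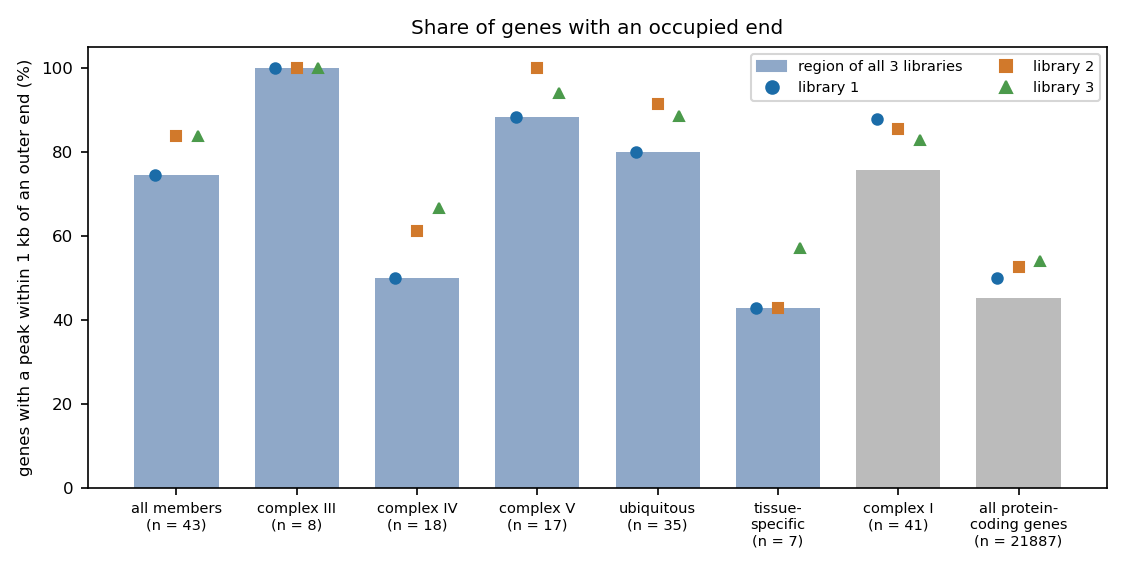
Share of genes (%) with a peak within 1 kb of an outer end, for the members, each complex, each isoform class, complex I and all protein-coding genes. Bars give regions with peaks of all 3 libraries and symbols give each library taken singly; complex III stands at 100% in every library and complex IV between 50% and 66.7%.

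Taken singly, libraries 1, 2 and 3 placed a peak at 32, 36 and 36 of the 43 members (74.4%, 83.7% and 83.7%), against 50%, 52.5% and 53.9% of all protein-coding genes. Complex III was called in 8 of 8 genes in each library. Complex IV was called in 9, 11 and 12 of 18 genes and complex V in 15, 17 and 16 of 17 genes in libraries 1, 2 and 3. The members that changed between libraries were mostly genes missed in library 1. Of the 43 members, 6 had no peak of any library at an outer end, where 8935 of all 21887 protein-coding genes had none. All 6 belong to complex IV, and among them Cox5a and Cox7a2 had a reproducible region at an inner start site.

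Occupied members were not stronger than other occupied genes. The median of their mean fold enrichment, the caller's ratio of summit to local background, was 7.44, against 7.41 for all 9902 occupied protein-coding genes. In libraries 1, 2 and 3 the members' medians were 7.17, 7.76 and 7.19, against 7.39, 7.66 and 7.15 for all occupied genes. Of the 32 occupied members, 16 lay above the median of all occupied genes and 5 in its top 10%. The number of fragments stacked at the summit (the pileup, solved from the deposited fold and p) ran from 10 to 109, and it was lowest in library 1 for 30 of the 32 members. Divided by each library's lowest background and averaged, the members' median was 20.02, against 21.56 for all occupied genes. The coefficient of variation of fold enrichment over the libraries had a median of 12.8% in the members and 12.9% in all occupied genes.

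**Figure D2:**
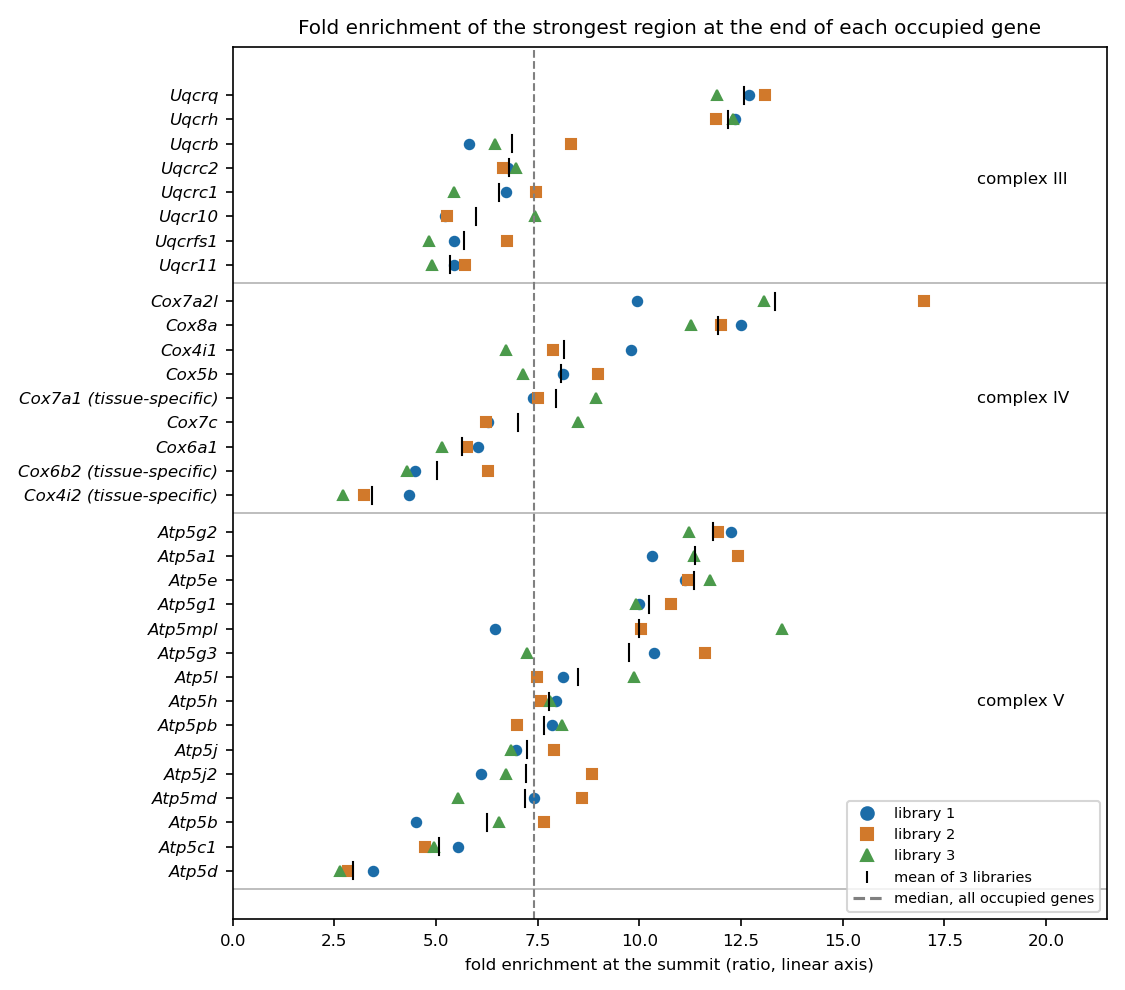
Fold enrichment (ratio, linear axis) of the strongest region at an end of each of the 32 occupied genes, by complex and ordered by mean. Symbols are libraries, black ticks their means, and the dashed line the median of all occupied protein-coding genes at 7.41; Uqcrq and Uqcrh stand clear of the other complex III genes.

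In complex III, a pair of small subunits stood above the rest. Uqcrq, the small subunit VIII, had fold enrichments of 12.7, 13.1 and 11.9 in libraries 1, 2 and 3 and pileups of 64, 97 and 104 fragments, at a mean of 12.6 ± 0.61 (SD, n = 3). Uqcrh, the acidic hinge protein at the cytochrome c1 side, had 12.4, 11.9 and 12.3, with pileups of 55, 79 and 106 and a mean of 12.2 ± 0.25 (SD, n = 3). Their lowest library was above the highest library of every other complex III gene. Both regions also came within 1 kb of another protein-coding gene, Gdf9 for Uqcrq and Lrrc41 for Uqcrh. Uqcrb, a small subunit named for ubiquinone binding, came next with 5.80, 8.31 and 6.45, a mean of 6.85 ± 1.3 (SD, n = 3), and Uqcr10 had 5.97 ± 1.27.

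The core of complex III lay below the median of occupied genes, as did the small subunits Uqcrb, Uqcr10 and Uqcr11. Uqcrc1 and Uqcrc2, the large core proteins, had means of 6.53 ± 1.02 and 6.80 ± 0.16, and Uqcrfs1, the Rieske iron-sulphur protein, 5.68 ± 0.98 (SD, n = 3). Uqcr11 was the weakest by mean fold enrichment at 5.43, 5.72 and 4.91 in libraries 1, 2 and 3, or 5.35 ± 0.41 (SD, n = 3). Its pileups of 27, 32 and 43 fragments were nevertheless above those of Uqcrfs1, which had 11, 16 and 14. Uqcrc2, with 6.77, 6.65 and 6.97, lay above Uqcr11 in every library by fold enrichment and below it in every library by pileup, with 13, 15 and 21 fragments. The order of these genes thus depended on the measure.

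In complex IV, Cox7a2l and Cox8a were strongest. Cox7a2l had 9.95, 17.0 and 13.1 in libraries 1, 2 and 3, a mean of 13.3 ± 3.53 (SD, n = 3). Its pileups were 31, 83 and 68 fragments. Its spread was wide: library 2 had 83 fragments where library 1 had 31. Cox8a, the ubiquitous form of subunit VIII, had 12.5, 12.0 and 11.3, a mean of 11.9 ± 0.62 (SD, n = 3) and pileups of 65, 97 and 109. Cox4i1, the general form of subunit IV, had 9.79, 7.88 and 6.73, or 8.13 ± 1.55 (SD, n = 3).

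The other ubiquitous complex IV genes ranged from moderate regions to none. Cox5b had 8.08 ± 0.92, Cox7c 7.002 ± 1.29 and Cox6a1 5.65 ± 0.46 (SD, n = 3). Cox6c had peaks in libraries 2 and 3 only, with fold enrichments of 6.65 and 6.11 and pileups of 15 and 17 fragments. Cox6b1 likewise had 3.51 and 5.18 in libraries 2 and 3, with pileups of 8 and 16. Cox7b, on chromosome X, had no peak of any library at an end, and its nearest reproducible region lay 3657 bp away.

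In complex V, the highest means were at Atp5g2 of the proton-carrying ring and at Atp5a1 and Atp5e of the catalytic head. The lowest were also at head genes, Atp5b, Atp5c1 and Atp5d. The c-ring, which turns as protons pass, is built from mature proteins that are identical although encoded by Atp5g1, Atp5g2 and Atp5g3, and all 3 were occupied. Atp5g2 had 12.3, 11.9 and 11.2 in libraries 1, 2 and 3, a mean of 11.8 ± 0.53 (SD, n = 3), with pileups of 41, 54 and 59. Atp5g1 had 9.98, 10.8 and 9.93, or 10.2 ± 0.47, with pileups of 48, 84 and 87. Atp5g3 had 10.4, 11.6 and 7.24, or 9.73 ± 2.25 (SD, n = 3). Atp5g2 exceeded Atp5g1 in each library by fold enrichment, while Atp5g1 had the larger pileups in each, and Atp5g3 overlapped both.

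All 5 subunits of the F1 head were occupied, over a wider range than the other roles of complexes III and V. Atp5a1, the alpha subunit, had 10.3, 12.4 and 11.3 in libraries 1, 2 and 3, or 11.4 ± 1.05 (SD, n = 3), with pileups of 32, 47 and 67. Atp5e, the epsilon subunit, had 11.1, 11.2 and 11.7, or 11.4 ± 0.34 (SD, n = 3), with pileups of 38, 43 and 60. These lay well above the catalytic beta subunit gene Atp5b, which had 4.51, 7.65 and 6.56, or 6.24 ± 1.59. The gamma subunit gene Atp5c1 had 5.07 ± 0.41 (SD, n = 3) on 12, 12 and 15 fragments.

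Atp5d, the delta subunit of F1, was the weakest occupied member by fold enrichment, at 3.44, 2.83 and 2.63 in libraries 1, 2 and 3 (2.96 ± 0.42, SD, n = 3). Its pileups of 38, 40 and 50 fragments were those of a stronger region: over the library background they ranked above 68.5% of occupied genes, while by fold enrichment they ranked above 0.172%. The region ended 811 bp outside the annotated gene and did not reach it. A further region covered the listed start site inside the gene (chr10:80141060-80142588), with 3.14, 3.34 and 3.07 and pileups of 38, 53 and 68.

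The occupied stalk and accessory membrane genes of complex V had means from 7.18 to 10. Atp5mpl, at the top of that range, lay above the ring gene Atp5g3 at 9.73. Of the peripheral stalk, which holds the head still, 3 of 4 genes were occupied: Atp5h at 7.77 ± 0.18, Atp5pb at 7.65 ± 0.59 and Atp5j at 7.23 ± 0.58 (SD, n = 3). Atp5o, the stalk subunit at the top of the head, had peaks in libraries 2 and 3 only, with 5.66 and 6.51 and pileups of 15 and 23 fragments. The 2 peaks overlapped, so that Atp5o was occupied without library 1. Of the accessory membrane subunits, 4 of 5 were occupied, Atp5l at 8.49 ± 1.23, Atp5j2 at 7.22 ± 1.44, Atp5md at 7.18 ± 1.54 and Atp5mpl at 10 ± 3.52 (SD, n = 3). By coefficient of variation Atp5mpl varied most over libraries among all occupied members (35.2%), with 6.45, 10.05 and 13.5 in libraries 1, 2 and 3. Atp5k, the remaining one, had a peak in library 2 alone, with 4.15 and 9 fragments.

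Isoform families showed no single pattern. For subunit VIII, the ubiquitous Cox8a was among the strongest members, while Cox8b, the heart and skeletal muscle form, and Cox8c, the testis form, had no peak in any library. The nearest reproducible region lay 16307 bp from an end of Cox8b and 20551 bp from one of Cox8c. For subunit IV, Cox4i1 had 9.79, 7.88 and 6.73, and Cox4i2, the lung form, had 4.34, 3.22 and 2.71 (3.43 ± 0.83, SD, n = 3), with pileups of 13, 12 and 16. The libraries of Cox4i1 were all above those of Cox4i2. Without library 1, Cox4i2 was no longer occupied, because its peaks in libraries 2 and 3 did not overlap each other.

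For subunit VIa, the ubiquitous Cox6a1 had 6.04, 5.76 and 5.15 in libraries 1, 2 and 3. The muscle form Cox6a2 had a peak within 1 kb of an end in library 3 alone, at 4.5 with 18 fragments, and that peak lay 849 bp outside the gene. For subunit VIb the testis form was occupied and the ubiquitous one was not. Cox6b2, the testis form, had 4.47, 6.29 and 4.27 (5.01 ± 1.11, SD, n = 3), with pileups of 17, 30 and 28, while the ubiquitous Cox6b1 had no peak in library 1 and 3.51 and 5.18 on 8 and 16 fragments in libraries 2 and 3. By fold enrichment Cox6b1 was thus the higher one in library 3. The region of Cox6b2 also came within 1 kb of Fam71e2, 131 bp away on the same strand, and its summits lay 590 bp apart over the libraries. For subunit VIIb, neither the ubiquitous Cox7b nor the testis form Cox7b2 had a peak at an end.

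The strongest tissue-specific gene was Cox7a1, the heart and muscle form of subunit VIIa, with 7.38, 7.51 and 8.94 in libraries 1, 2 and 3 (7.94 ± 0.86, SD, n = 3) and pileups of 25, 28 and 46. Its summits lay at -37, -2 and -39 bp from its start site, just upstream, and no other protein-coding gene end lay within 1 kb of the region (chr7:30183851-30184430). The ubiquitous Cox7a2 had no peak at an outer end, but its listed start site lies 11569 bp inside the outer annotation. That start site held a reproducible region (chr9:79759406-79760191) with 12.0, 8.46 and 8.92 and pileups of 27, 24 and 31, a mean of 9.80 ± 1.95 (SD, n = 3). By fold enrichment Cox7a2 and Cox7a1 overlapped over the libraries.

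**Figure D3:**
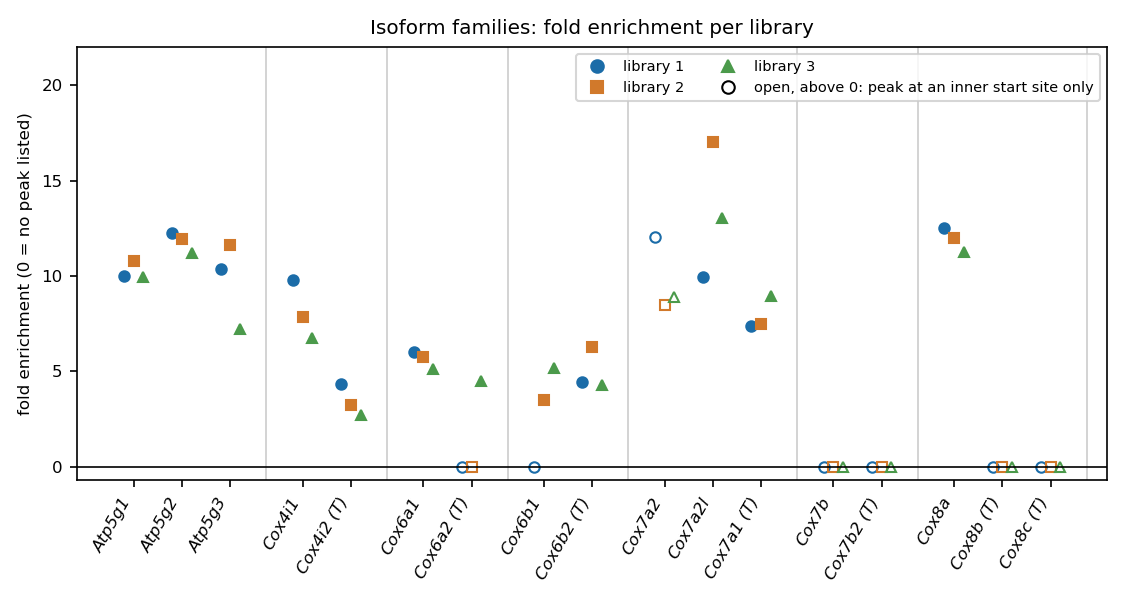
Fold enrichment per library in the 7 isoform families, with tissue-specific genes marked T. Filled symbols are peaks within 1 kb of an outer end, open symbols above 0 are peaks at an inner start site only, and symbols at 0 mean that no peak is listed; Cox8a stands between 11.3 and 12.5 while Cox8b and Cox8c have no peak.

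Outer gene ends missed some promoters, so start sites were examined as well. This alternative was added after the data had been seen. The promoter table gives strand and start sites for 33 of the 43 members (76.7%). A reproducible region came within 1 kb of a listed start site in 27 of the 33 (81.8%), against 46.9% of the 17492 protein-coding genes in the table. Complex III had 5 of 5, complex V 13 of 15 and complex IV 9 of 13 (69.2%). Ubiquitous genes had 24 of 28 (85.7%) and tissue-specific genes 2 of 4. By this rule 2 members were added, Cox7a2 and Cox5a, so that 34 of the 43 had a region at an outer end or a start site. The share of all protein-coding genes with a region at either place was not computed.

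Cox5a, a nuclear subunit at the matrix face of complex IV, changed most. Its outer ends were empty in every library, and the nearest reproducible region lay 3539 bp from one. At its listed start site, 3904 bp inside the outer annotation, it had fold enrichments of 12.7, 11.5 and 11.4 in libraries 1, 2 and 3 and pileups of 74, 94 and 117 (11.8 ± 0.71, SD, n = 3; chr9:57520867-57521781). That mean was close to those of Cox8a and Atp5g2. Atp5g3 was the opposite case: its region was centred on a start site 1138 bp inside the outer end and counted as occupied because its edge lay 797 bp from that end. The unoccupied members nearest to the 1 kb limit were Cox6b1 and Cox5a, with a reproducible region 3233 and 3539 bp from an end.

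Summits lay close to most start sites, in genes chosen for a region within 1 kb of one. The matching counts over all genes were not computed, so these positions are not shown to be particular to the members. In 21 of the 27 genes with a region at a start site, the summits of all 3 libraries lay within 250 bp of it. The median summit was upstream in 11 genes and at or downstream of the start in 16, between -836 bp (Atp5d) and 170 bp (Atp5h), where negative positions are upstream. In all 25 occupied members of known strand, the strongest outer-end region reached the window of the upstream outer end; that of the short gene Cox6b2 reached both windows, and that of Atp5d lay over 4 kb from its listed start sites. Atp5b also had a weaker region beyond its other end (4.54 ± 0.10, SD, n = 3), which came within 1 kb of Baz2a.

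**Figure D4:**
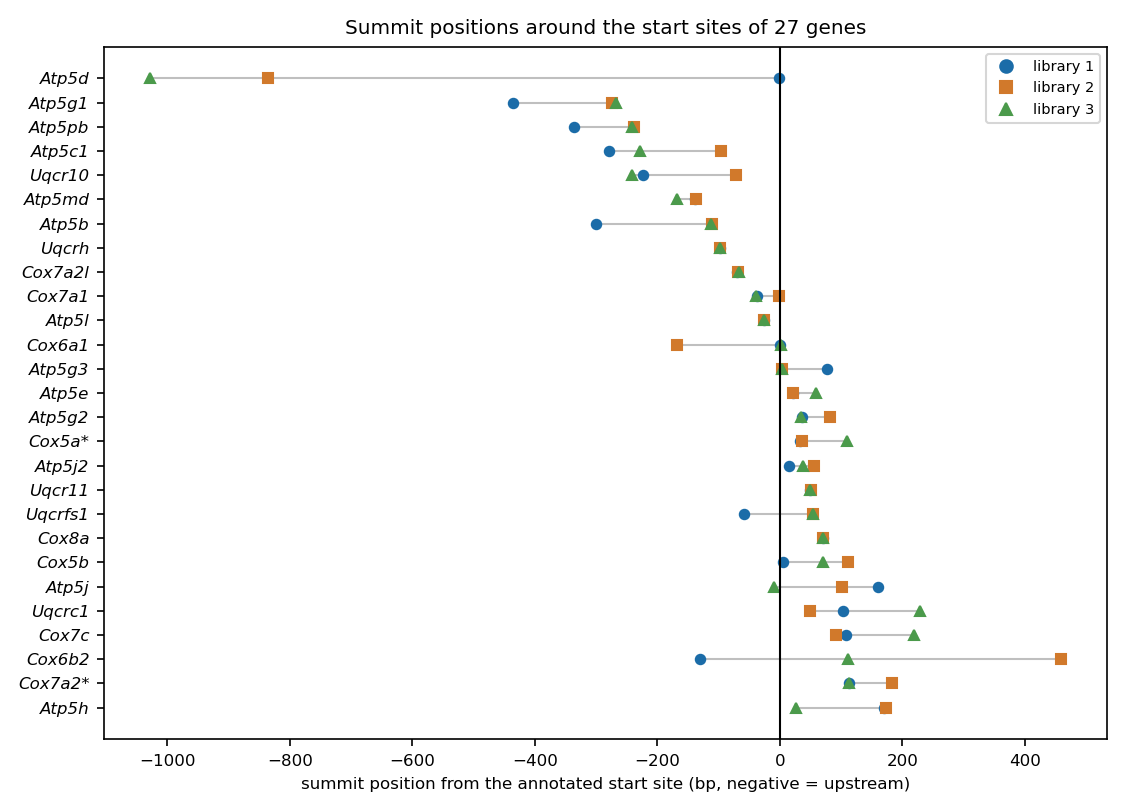
Position of each library's summit (bp) from the annotated start site, negative upstream, for the 27 genes with a reproducible region there, with grey lines over the range of the libraries. Asterisks mark Cox5a and Cox7a2, which had no peak at an outer end; the 3 summits of Atp5l fall on the same base, at -26 bp.

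At several genes the libraries agreed to the base pair. From the start site, the summits of Atp5l lay at -26 bp in each library, those of Uqcrh at -97, -98 and -97 bp and those of Cox8a at 70, 71 and 70 bp. Cox7a2l had -69, -68 and -67 bp, and Uqcr11 50, 51 and 49 bp. With Uqcrq, 6 of the 32 occupied members (18.8%) had summits within 10 bp over the libraries, against 9.17% of all occupied genes. The median spread of the summits was 109.5 bp in members and 131 bp in all occupied genes.

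In the promoters printed above, the summits of Cox8a fell just past the last printed base, behind its second CTTCCGG, the reverse form of the ETS sequence. That sequence stood at -5 to 1 and at 32 to 38 from the start site, which is counted as 0. Uqcrh held the same sequence at -10 to -4 and CCAAT at -52 to -48. The ETS sequence occurs in 8.86% of the 32851 promoters of the table and CCAAT in 37.4%. Atp5g2 held the NRF1 palindrome, the run of 10 capitals in its sequence, at -42 to -33, which 0.971% of promoters hold, and GGGCGG in reverse at -4 to 1. Cox7a2l held GGGCGG at -22 to -17 and 12 to 17, and Cox7a2 at -44 to -39, a sequence found in 35.7% of promoters.

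TGACCA was found in 1 of the 6 printed promoters, in reverse at 32 to 37 in Cox8b, which had no peak; 13.6% of all promoters hold it. ATGGCGG, found in 4.05% of promoters, was in none of the 6. CpG dinucleotides numbered 2 in the promoter of Cox8b, against 19 in Cox8a, 15 in Uqcrh, 20 in Atp5g2, 19 in Cox7a2l and 20 in Cox7a2, and the median promoter of the table had 7. Shares over all members are not given, because fewer than 80% of them have a promoter in the table and such a check is void.

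Many of the regions came close to an end of a second protein-coding gene. Of the 32 occupied members, 13 (40.6%) had a strongest region within 1 kb of an end of another protein-coding gene, against 29.4% of all occupied genes. Of the 31 occupied complex I genes, described below, 16 (51.6%) had one. Where both strands were known, 7 pairs ran on opposite strands and 2 on the same one. Atp5j overlaps Gabpa on the opposite strand, and their shared region had 6.95, 7.89 and 6.83 in libraries 1, 2 and 3. Gabpa encodes an ETS factor known to act on promoters of respiratory genes. Uqcrh lay 198 bp from Lrrc41, Atp5pb 234 bp from Wdr77, Atp5h 174 bp from Kctd2, Atp5md 87 bp from Pdcd11, Atp5c1 40 bp from Kin and Uqcr10 311 bp from Zmat5. Uqcrq overlaps Gdf9, and Atp5a1 overlaps Haus1. Cox4i1 lay 137 bp from Emc8 and 82 bp from Gm27021, Atp5e 974 bp from Prelid3b and Uqcrb 64 bp from Gm10767. The region of any such pair cannot be given to either gene.

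Regions away from gene ends were counted as well. Counting regions with a summit over 1 kb from every gene end and assigning each to the nearest protein-coding end within 100 kb, 14 fell to members, 0.326 per gene against 0.543 per protein-coding gene. They were spread over 10 members (23.3%), a share not far from the 28.4% of all protein-coding genes. Among them were the regions of Cox5a, Atp5d and Atp5g3 described above, whose summits lie over 1 kb from the outer end. Cox4i1 and Cox4i2 had 3 each. The strongest outside a gene lay 24110 bp from Cox4i2 (chr2:152788628-152790148), at 8.76 ± 1.36 (SD, n = 3). Uqcrc1 had a region inside the gene, 6214 bp from its end, at 5.35 ± 1.40 (SD, n = 3). The members are compact, with a median length of 6271 bp against 17169 bp for all protein-coding genes, and 8 are shorter than 2 kb.

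Genes that work with these complexes were described by the same rule, under which 45.2% of all protein-coding genes were occupied. Complex I, the first proton pump of the chain, was taken as the genes with Nduf symbols other than the Ndufaf assembly factors. Of these 41 genes, 31 were occupied (75.6%), a share close to the members' own. They include Ndufa4, which is also counted below with complex IV. Complex II genes and their assembly factors had 6 of 8, with Sdhaf2 at 12.7 ± 2.96 and the catalytic subunit gene Sdha at 3.76 ± 0.39 (SD, n = 3). All 7 further genes of complex III were occupied, among them Cyc1, which encodes cytochrome c1, at 6.37 ± 1.16 and the Rieske assembly chaperone Bcs1l at 12.2 ± 2.20 (SD, n = 3). Somatic cytochrome c, Cycs, had 11.4 ± 0.85 (SD, n = 3), while the testis form Cyct had no peak in any library.

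Of 24 assembly factors and associated proteins outside the symbol rule, 22 were occupied (91.7%), against 45.2% of all protein-coding genes. The complex IV subunits under the symbol rule, without Cox7a2l, had 8 of 17 (47.1%). Those 17 include the 7 tissue-specific isoforms, and the 10 ubiquitous subunits had 5 (50%). The strongest were Coa7 at 17.6 ± 0.87, Ndufa4 at 17.5 ± 2.003, Cox18 at 16.4 ± 2.52 and Higd1a at 14.7 ± 0.85 (SD, n = 3), all known to act in complex IV or its assembly. Cox10 and Surf1 were the unoccupied ones, and neither had a region at a listed start site. The difference was not tested. With start sites counted as well the subunits had 10 of 17 (58.8%), and the ubiquitous ones among them 7 of 10 (70%). That combined rule was not applied to all protein-coding genes. Of 5 further genes listed with complex V, not all of them subunits, Dmac2l alone was occupied (20%, against 45.2% of all protein-coding genes). It had 12.3 ± 0.65 (SD, n = 3). Atpaf1 had peaks in 2 libraries, Tmem70 and Dmac2 in 1, and Atpaf2 had no peak at an outer end but a region at its listed start site.

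Among 14 regulators of respiratory and mitochondrial genes, 11 were occupied (78.6%), where 45.2% of all protein-coding genes were. Tfb2m and Tfb1m, which serve mitochondrial transcription and ribosomal RNA, had 14.8 ± 1.52 and 14.3 ± 2.25, Esrra 10.3 ± 0.59 and Yy1 10.3 ± 0.75 (SD, n = 3). Nrf1, named for nuclear respiratory factor, had 5.73 ± 1.83 and Tfam, which packages mitochondrial DNA, 7.76 ± 0.29 (SD, n = 3). Ppargc1a had single-library peaks in all 3 libraries that did not join into a reproducible region at an end. Gabpb1 had none at an outer end but a region at its start site.

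The grid of genes by rule shows which members kept their call. Under all 11 rules based on outer ends, 12 of the 43 members were occupied (27.9%), against 18% of all protein-coding genes: Uqcrq of complex III, Cox4i1, Cox5b, Cox7a1, Cox7a2l and Cox8a of complex IV, and Atp5a1, Atp5e, Atp5g1, Atp5g2, Atp5h and Atp5l of complex V. The muscle isoform Cox7a1 was among them. Both shares are over all genes, occupied or not. Of the genes occupied as reported, 12 of 32 members and 3934 of all 9902 genes kept the call, so the members did not keep it more often. The rule that took only the 10000 strongest peaks of each library left 14 members (32.6%, from 74.4%). Of all protein-coding genes it left 20.6%, from 45.2%.

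**Figure D5:**
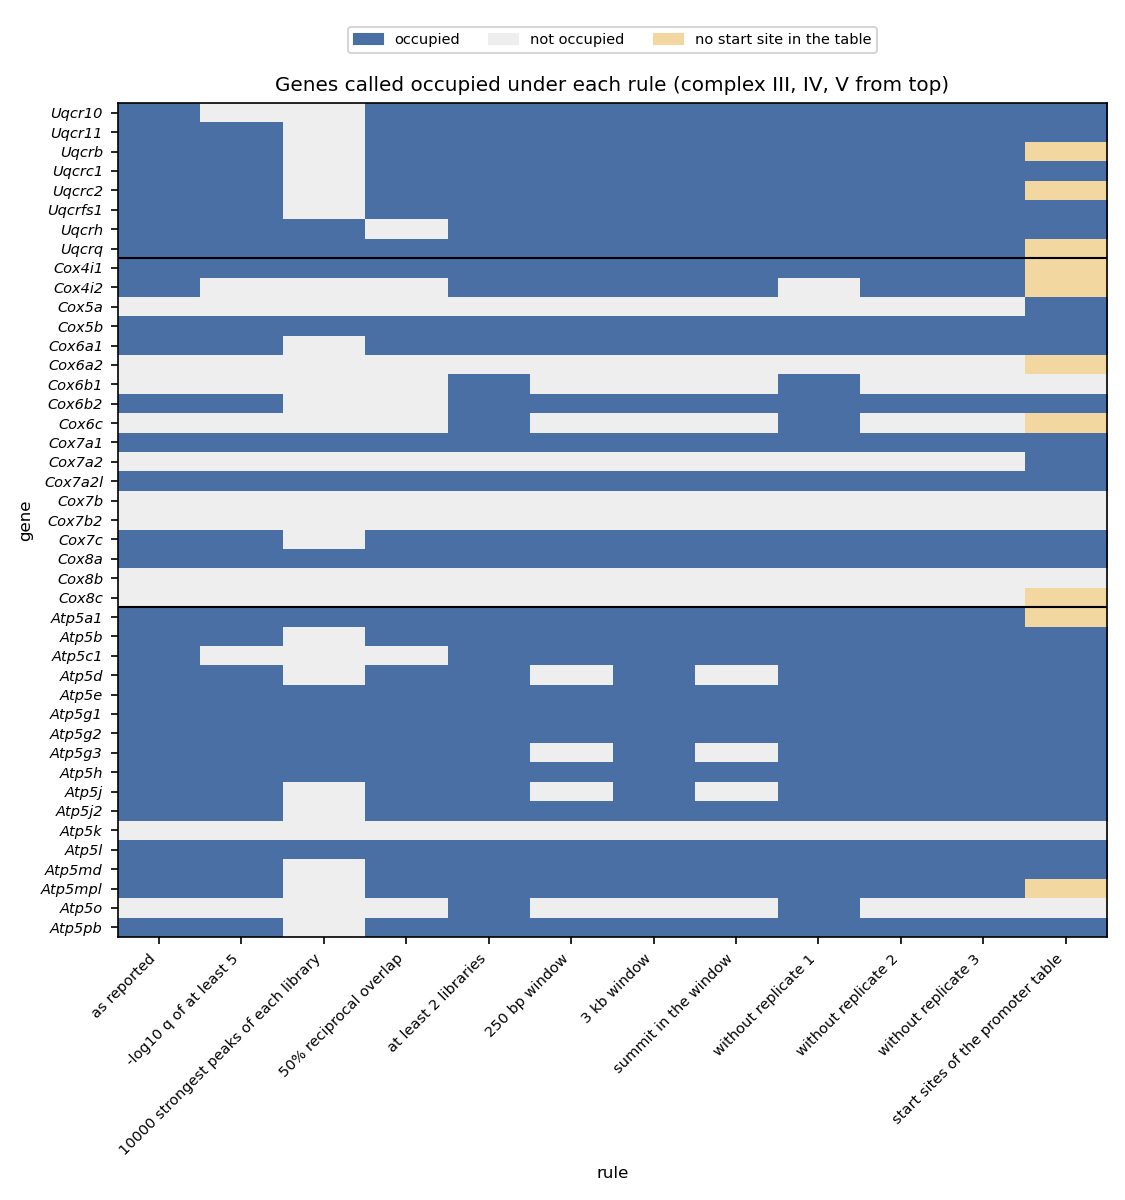
Members (rows, by complex) called occupied under each rule (columns), with blue for occupied, grey for not occupied and yellow for genes with no start site in the promoter table. Library 1 is the only one whose removal changed calls among outer-end rules: Atp5o, Cox6b1 and Cox6c were gained and Cox4i2 was lost.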

How the data were processed

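Per the labels' protocols, CUT&Tag libraries were made with a Vazyme kit. Per the submitters' processing notes, Bowtie2 placed the reads on mm10, and SAMtools and MACS2 led from alignments to peaks; versions are not given in the sources. Each deposited list holds the peaks of 1 library. The deposited score was not used. The deposited fold enrichment is a ratio of summit pileup to local background, and the deposited −log10 p and −log10 q are the caller's own (lowest −log10 q about 1.3). Pileups were solved from the deposited fold and −log10 p as a Poisson tail, and 100% came out within 0.05 of a whole fragment. The sources used here do not state how duplicates were treated.

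Peaks of the nuclear chromosomes were joined where they overlapped by at least 1 bp (Python 3.11.15, pandas 2.3.3, SciPy 1.17.1). A region's value in a library is that of its strongest peak, and a gene's that of its strongest region by mean fold enrichment. Genes, start sites and promoters came from RefSeq tables of GRCm38.p6, which give outer ends without exons or UTRs. Joining, gene-end calls and the pileup solver were checked on simulated data. No test was made: values are described beside those of all protein-coding genes. All members may be named; values per library were planned for the 3 strongest and the weakest of each complex, the tissue-specific genes and unoccupied members with a peak. Isoform classes and related gene lists came from general knowledge. The members and lists were chosen with earlier results of these data known. Alternatives were a stricter q, the 10000 strongest peaks, 50% reciprocal overlap, 2 libraries, windows of 250 bp and 3 kb, summits in the window, each library left out and other measures of strength. Start sites were added after seeing the data. Reads from near-identical gene copies elsewhere in the genome may be lost or misplaced in alignment, and this was not tested.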

Additional observations from a re-analysis of the deposited data

Results flagged for a closer look

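Peaks on the mitochondrial chromosome were in the deposited lists but outside the nuclear comparison, and some cover genes of complexes III and IV. Library 1 had 8 such peaks, library 2 had 7 and library 3 had 7. The strongest peak of each library covered the far end of the chromosome with part or all of CYTB, the cytochrome b gene of complex III, at fold enrichments of 4.81, 4.37 and 4.95 and pileups of 2094, 3091 and 3921 fragments in libraries 1, 2 and 3. COX1, the catalytic subunit gene of complex IV, had 2.0002, 1.80 and 1.97, and COX3 had 1.24, 1.19 and 1.29. COX2, ATP6 and ATP8 had no peak in any library. No library without the tagged protein was analysed here, so these values have no background level to stand beside, and their source was not tested.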

How the results depend on the processing

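Taking only the 10000 strongest peaks of each library left 14 occupied members, with 2 in complex III, 5 in complex IV, 7 in complex V, 12 ubiquitous and 1 tissue-specific, and raised their median fold enrichment to 10.8; fewer peaks enter by construction. With 50% reciprocal overlap 1 tissue-specific gene was occupied. With the 3 kb window the median fold enrichment was 7.79. With start sites in place of outer ends complex III had 5, because only 5 of its 8 genes have a listed start. Leaving out each library in turn gave 32 to 34 occupied members, 8 in complex III, 9 to 10 in complex IV, 15 to 16 in complex V, 28 to 31 ubiquitous, 2 to 3 tissue-specific and a median of 7.37 to 7.51. Every other count under the listed alternatives was within 1.5 times that reported, and every other median within the SD of the library medians, 0.337. The share of occupied genes below the members' median was 50.3% by fold enrichment, 45.5% by pileup over background and 39.3% by −log10 q. No paired analysis was possible because all libraries belong to 1 group. Some members had no peak at an outer end in library 1 but one in another. They had 8 to 23 fragments there, against 10 to 109 in occupied members. Cox6b1 with 8 and Atp5k with 9, both in library 2, lay below that range. The part of depth in these calls was not tested. An unlisted peak does not show that the protein is absent.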
